A study of Mus musculus with 27 samples.

Results

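Fat and Dachsous cadherins, with the kinase Fjx1, the coactivator Yap1 and the Hippo target genes Ctgf and Ankrd1, were followed through RNA-seq libraries of mouse limb buds (LBs), other embryonic tissues and limb buds made from mouse embryonic stem (ES) cells. The 10 genes, Fat1, Fat2, Fat3, Fat4, Dchs1, Dchs2, Fjx1, Yap1, Ctgf and Ankrd1, were chosen from a table of 23279 genes because the level of Fat4 was higher in later limb buds and in the sorted ES-derived cells. Those differences therefore chose the list and are given below as descriptions without a test. Values of 9 of the 10 were read, and Dchs2 was not analysed here. In the annotation Ctgf is listed as Ccn2.

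The study compared limb buds induced in culture with those of the embryo, and 9 groups of 3 libraries each were made. Embryonic tissue was taken from Slc:ICR mice and comprised early forelimb buds (FLBs) and early hindlimb buds (HLBs), both labelled E10.0, FLBs and HLBs of E10.5, and 3 further E10.5 tissues, the branchial arch (BA), the tail bud (TB) and the heart (Ca, for cardiac). According to the methods, the tissues were amputated from 3 embryos, and no sorting is named for them. The figure legend of the study gives the early FLBs an earlier stage than the early HLBs, so that limb type and stage cannot be told apart between these groups. ES–FLB and ES–HLB cells came from aggregates of a single ES cell line, EB5 Hand2::GFP +/-, which carries a fluorescent reporter in 1 copy of Hand2, a gene of lateral plate and limb bud mesenchyme. Both ES groups received BMP4 and Matrigel, and later hydrocortisone, methylcellulose, a BMP inhibitor and Wnt3, with retinoic acid for ES–FLB and a retinoic acid antagonist for ES–HLB, and on day 9 the reporter-positive mesenchyme was dissociated and sorted by FACS. Culture, cell line, dissociation and sorting thus differ together between the ES groups and the embryonic tissues and cannot be told apart. Nothing in the labels says that libraries of 1 group came from separate litters or cultures, and p-values then measure only the spread between these libraries.

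Values are given as scaled CPM, read counts divided by the library total and then brought to a common scale over the libraries. The depth read from the spacing of low values was 5543670 to 22141950 reads in the 26 libraries used, deepest in the early limb buds and lowest in those of E10.5, and the worth of 3 reads, used here as a detection floor, lay between 0.150 and 0.543 scaled CPM. An HLB library of E10.5, replicate 2, was left out because it lacked values over whole chromosomes, so the E10.5 HLBs have n = 2. In these bulk samples fewer cells of a type and less RNA per cell cannot be told apart. Limb bud mesenchyme markers (6 genes, among them Prrx1 and Hand2) were above the floor in every library, and their summed level was 1393 to 1409 scaled CPM in early FLBs, 2159.7 to 2266 in ES–FLB and 461 to 584 in Ca. Cardiomyocyte markers (9 genes) summed to 15307 to 18585 in Ca.

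Fat and Dachsous proteins are very large cadherins that bind each other across the border of neighbouring cells, and Fat4 with Dchs1 is the best known mammalian pair. Fjx1, the relative of the fly kinase Four-jointed, modifies cadherin repeats of both partners in the Golgi and tunes their binding. In flies this system orients cells within a tissue and acts on the Hippo pathway, in which the kinases Stk3 and Stk4 (Mst) and Lats1 and Lats2 hold back the coactivators Yap1 and Wwtr1 (TAZ). With Tead factors these coactivators switch on genes such as Ctgf, Cyr61 and Ankrd1, while the route from Fat4 to Yap1 in mammals is less settled. In the mouse, Fat4 and Dchs1 are known for their part in the shaping of the kidney, skeleton and other mesenchymal organs.

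The genes lie apart in the genome. On GRCm38 (mm10), Fat1 is at chr8:44935447-45052257, Fat2 at chr11:55250609-55336564, Fat3 at chr9:15910189-16501285, Fat4 at chr3:38886940-39011985 and Dchs1 at chr7:105752990-105787654. Fjx1 is at chr2:102449366-102452499, Yap1 at chr9:7931999-8004596, Ctgf at chr10:24595442-24598683 and Ankrd1 at chr19:36111961-36120099. The 4 Fat genes and Dchs1 have 11.1 to 21.5 kb of exons, against 3.13 kb for Fjx1. Exons of Fat1, Fat4, Dchs1, Yap1 and Ctgf overlap a non-coding gene or pseudogene on the other strand, and because the strand setting of the counting is not stated, reads of these pairs cannot be told apart.

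Because Tead factors recognise the letters GGAATG, the 250 bases before each RefSeq start (GRCm38.p6) were searched for them and for CATTCC, their reverse complement. Of all 32851 promoters of that length 12.6% held a match and 1.02% held 2 or more. Promoters of 7 of the 10 genes were matched, namely Fat1, Fat2, Fat3, Fat4, Dchs2, Yap1 and Ankrd1. A match was found for 4 of them, with 2 copies for Ankrd1, and Fat3, Fat4 and Dchs2 had none in this window. The matches are shown with Cyr61, a target gene that returns below, as 30 bases read along the gene's own strand with the motif in capitals.
Ankrd1, chr19:36120037-36120066, - strand: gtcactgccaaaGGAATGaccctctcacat
Ankrd1, chr19:36119950-36119979, - strand: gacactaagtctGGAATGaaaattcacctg
Cyr61, chr3:145650071-145650100, - strand: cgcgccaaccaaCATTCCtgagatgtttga
Yap1, chr9:8004720-8004749, - strand: cgggagtctgcaGGAATGtagcgacgcgca
Fat1, chr8:44950094-44950123, + strand: cagtgtgggtggGGAATGcttgatgcataa
Fat2, chr11:55312425-55312454, - strand: tctggatctgggGGAATGggaggaggagta
The motifs of Ankrd1 begin 210 and 123 bases before the RefSeq start, in a stretch that GENCODE counts as part of the first, untranslated exon of a longer transcript. The sites of Cyr61 and Yap1 lie outside annotated genes, and those of Fat1 and Fat2 lie in introns of longer transcripts of the same gene. The motifs begin 103 bases before the start for Cyr61, 141 for Yap1, 102 for Fat1 and 185 for Fat2. A match is a run of letters and does not show that a factor binds there.

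Fat4, the receptor of the pair, showed a wide range over the groups. Early FLBs gave 20.5, 11.1 and 20.2 scaled CPM and early HLBs 26.5, 24.2 and 22.3, the lowest levels of the series. At E10.5, FLBs gave 104, 80.5 and 107 and HLBs 56.4 and 60.8. ES–FLB gave 496, 514 and 503 and ES–HLB 279, 319.7 and 323. Every sorted ES library thus lay above every embryonic library, and every E10.5 limb bud above every early one. The mean of ES–FLB was 504 ± 9.07 (SD, n = 3) and that of early FLBs 17.3 ± 5.31 (SD, n = 3), a ratio of 29.2. In log2 terms, with the SE of the fit, the difference from early FLBs to E10.5 FLBs was 2.49 (SE 0.30) and from early FLBs to ES–FLB 4.88 (SE 0.27). For the hindlimb the same differences were 1.25 (SE 0.09) to E10.5 and 3.63 (SE 0.07) to ES–HLB. These are the differences that chose the genes. With CPM as deposited, before the common scaling, the median of all genes stood higher by 0.20 in the later FLBs, 0.25 in ES–FLB and 0.20 in ES–HLB than with scaled values. Set against E10.5 limb buds, the mean of Fat4 was 5.20 times as high in ES–FLB as in E10.5 FLBs and 5.25 times as high in ES–HLB as in E10.5 HLBs.

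Among the other tissues, BA gave 128, 129 and 118, Ca 42.8, 49.1 and 71.3 and TB 71.0, 54.8 and 73.2. In order of the means, ES–FLB, ES–HLB, BA and E10.5 FLBs were followed by TB, E10.5 HLBs, Ca, early HLBs and early FLBs. Libraries of neighbours in this order overlapped between TB and E10.5 HLBs and between E10.5 HLBs and Ca, and the other neighbours were separate. Replicate 2 of the early FLBs was the lowest library of all, and it widened the spread of that group to 30.7% of its mean.

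**Figure D1:**
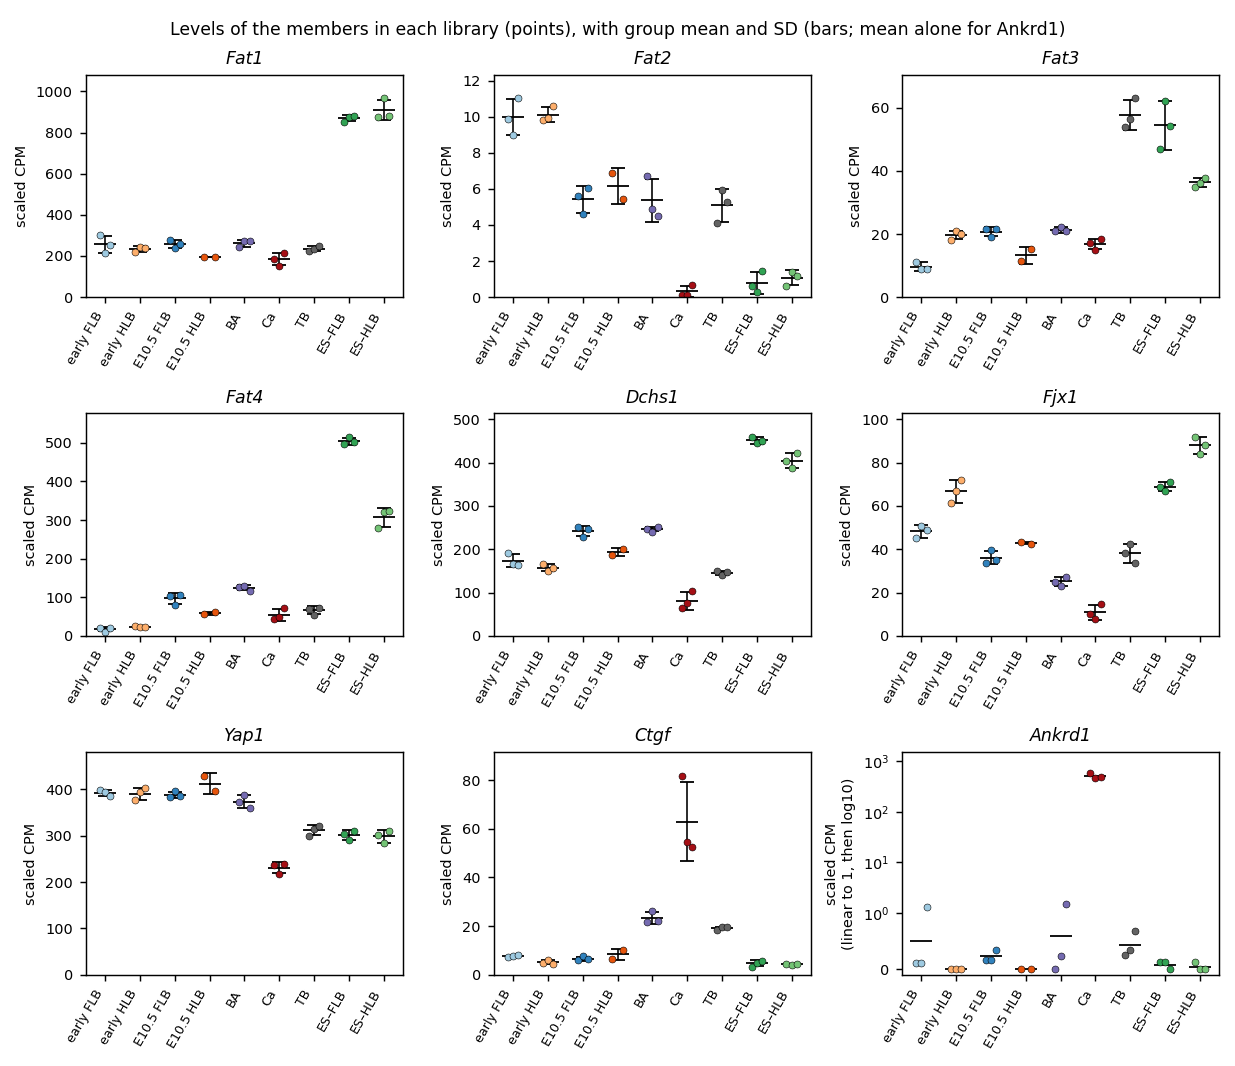
Scaled CPM (y axis, linear, and for Ankrd1 linear to 1 and then log10) of the 9 genes in each library (points) of the 9 groups (x axis), with the group mean and SD as bars and the mean alone for Ankrd1. Fat4, Fat1 and Dchs1 were highest in the ES groups, Ctgf and Ankrd1 in Ca, and Fat2 was lowest in Ca and the ES groups.

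Dchs1, the cadherin that Fat4 binds, varied less. Early FLBs gave 190.4, 165 and 164 scaled CPM, early HLBs 167, 151 and 156, E10.5 FLBs 251, 228 and 246 and E10.5 HLBs 186 and 199.6. ES–FLB gave 459, 444 and 451 and ES–HLB 404, 388 and 422, above all embryonic libraries. BA gave 247, 241 and 251, TB 149.5, 139.8 and 147 and Ca 64.7, 75.6 and 104, the lowest of all groups. The order of the means was ES–FLB, ES–HLB, BA, E10.5 FLBs, E10.5 HLBs, early FLBs, early HLBs, TB and Ca. Libraries overlapped between BA and E10.5 FLBs, between E10.5 HLBs and early FLBs, and between early FLBs and early HLBs. The log2 difference from the early to the E10.5 stage was 0.48 (SE 0.06) in FLBs and 0.29 (SE 0.06) in HLBs, and from early limb buds to the ES groups 1.38 (SE 0.05) for the forelimb and 1.36 (SE 0.05) for the hindlimb.

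Set per kb of exon, so that genes of different length can be compared, Dchs1 and Fat1 made up most of the Fat and Dachsous transcripts in every group. Fat4 accounted for 2.91% ± 0.713 (SD, n = 3) of the summed CPM per kb of the 5 cadherins in early FLBs and 4.40% ± 0.397 in early HLBs. Its share was 12.4% ± 1.11 in E10.5 FLBs, 15.3% ± 0.912 in BA, 15.6% ± 0.835 in ES–HLB and 22.9% ± 0.281 in ES–FLB. The ratio of Fat4 to Dchs1, receptor over partner and both per kb, was 0.0641 ± 0.0186 in early FLBs, 0.0991 ± 0.00636 in early HLBs, 0.258 ± 0.0271 in E10.5 FLBs, 0.196 ± 0.000758 in E10.5 HLBs (n = 2), 0.489 ± 0.0426 in ES–HLB and 0.720 ± 0.0242 in ES–FLB. Fat4 was therefore at a lower level per kb than Dchs1 in every group, ES–FLB included. In Ca the ratio was 0.428 ± 0.0106, at a low level of both genes. Lengths of the longest transcript in place of all exons gave ratios within 3.68% of these.

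**Figure D2:**
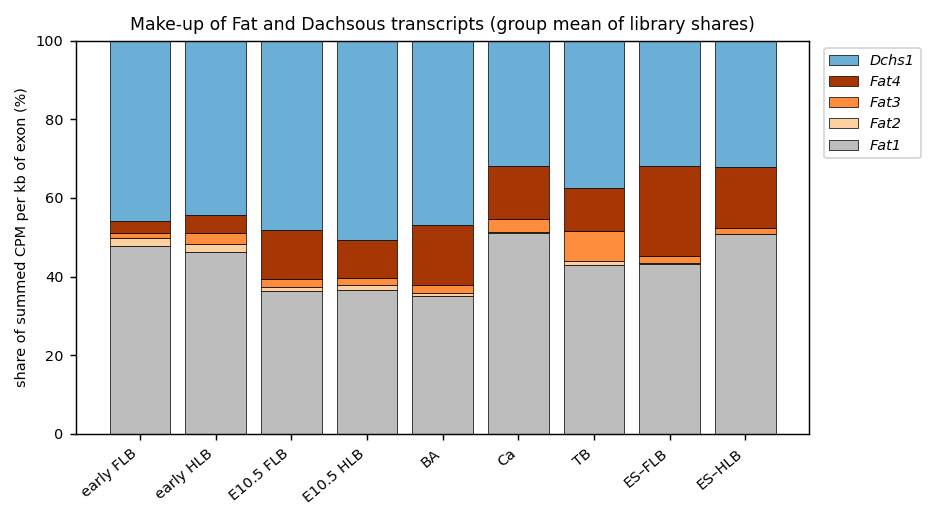
Share (y axis, %) of Fat1, Fat2, Fat3, Fat4 and Dchs1 in their summed CPM per kb of exon for each of the 9 groups (x axis), as the mean of the library shares. The share of Fat4 was 2.91% in early FLBs and 22.9% in ES–FLB, and Fat3 reached its largest share, 7.65%, in TB.

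Fat1, a cadherin known for its part in actin organisation at cell contacts, was nearly even over the embryo and several times higher in the ES groups. Group means in the embryo lay between 184 ± 29.6 (SD, n = 3) scaled CPM in Ca and 262 ± 17.1 (SD, n = 3) in BA, a ratio of 1.42. ES–FLB gave 854, 877 and 882 and ES–HLB 878, 967 and 883, which overlapped each other and lay above all other libraries. The log2 difference was 1.77 (SE 0.12) from early FLBs to ES–FLB and 1.96 (SE 0.05) from early HLBs to ES–HLB, and from the early to the E10.5 stage 0.02 (SE 0.14) in FLBs and -0.24 (SE 0.06) in HLBs. From BA down to early HLBs, neighbours in the order of means (BA, E10.5 FLBs, early FLBs, TB, early HLBs) overlapped, and E10.5 HLBs and Ca followed below, overlapping each other.

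Fat2, a cadherin known from epithelia and the cerebellum, ran the other way and was low everywhere. Early FLBs gave 9.89, 9.002 and 11.02 scaled CPM and early HLBs 9.83, 9.95 and 10.6, the highest levels. ES–FLB gave 0.603, 0.259 and 1.45 and ES–HLB 0.633, 1.41 and 1.19, close to the floor of 3 reads (0.356 to 0.423 in these libraries). Ca gave 0.130, 0.140 and 0.685, under a floor of 0.391 to 0.420 in 2 of its 3 libraries. E10.5 limb buds, BA and TB lay between, with means of 5.09 to 6.16 and overlapping libraries. The log2 differences, -0.83 (SE 0.15) from early to E10.5 FLBs, -0.68 (SE 0.15) from early to E10.5 HLBs, -3.15 (SE 0.29) from early FLBs to ES–FLB and -2.79 (SE 0.20) from early HLBs to ES–HLB, all pointed down, and the size of those to the ES groups moved with the pseudocount. The sum of the surface ectoderm markers (10 genes, such as Krt8, Epcam and Trp63) was lower in every other group than in early limb buds, as was Fat2. Singly, against early limb buds, 3 markers were higher and 7 lower in E10.5 FLBs and 2 lower in E10.5 HLBs. In ES–FLB 1 was higher and 5 lower, and in ES–HLB 1 was higher and 7 lower. Their sum was 426 to 514 scaled CPM in early FLBs, 401 to 454 in early HLBs, 325 to 335 in E10.5 FLBs, 307 to 327 in E10.5 HLBs, 358 to 383 in BA, 278 to 311 in TB, 226 to 245 in ES–HLB, 128 to 187 in ES–FLB and 104 to 168 in Ca, with none of the 10 at 0 throughout a group. In BA, against E10.5 limb buds, of these markers 4 of 10 were higher and 1 lower (median 0.45), while Fat2 did not pass. Their part in the levels of Fat2 was not tested.

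Fat3, a cadherin known from neurons of the retina, was highest in TB and ES–FLB. TB gave 54.0, 56.4 and 63.0 scaled CPM, ES–FLB 46.9, 62.3 and 54.3 and ES–HLB 35.0, 36.3 and 37.9, and TB and ES–FLB overlapped. Early FLBs gave 11.2, 8.80 and 8.80, the lowest group, and early HLBs 18.2, 20.9 and 19.9. E10.5 FLBs gave 21.5, 19.1 and 21.6 and E10.5 HLBs 11.4 and 15.1. In log2 terms the stage difference was 1.08 (SE 0.12) in FLBs and -0.56 (SE 0.13) in HLBs, opposite in sign. The HLB value was -0.37 without replicate 1 and -0.76 without replicate 3 of the E10.5 HLBs. ES–FLB differed from early FLBs by 2.45 (SE 0.12) and ES–HLB from early HLBs by 0.87 (SE 0.08). BA, E10.5 FLBs, early HLBs, Ca and E10.5 HLBs followed the ES groups in this order, and each overlapped its neighbour. Neural markers (6 genes, such as Sox2 and Tubb3) summed to 132 to 152 scaled CPM in TB, 31.6 to 40.04 in ES–FLB, 31.6 to 42.9 in ES–HLB and 12.3 to 17.0 in E10.5 FLBs, where 3 of the 6 were at 0 in every library, and their part in the levels of Fat3 was not tested.

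Fjx1, the kinase that modifies both cadherins, was highest in ES–HLB. ES–HLB gave 91.7, 83.9 and 88.2 scaled CPM and ES–FLB 68.6, 66.9 and 71.1. Early HLBs gave 61.4, 67.0 and 72.0, early FLBs 45.1, 50.8 and 48.9, E10.5 HLBs 43.2 and 42.5 and E10.5 FLBs 33.7, 39.7 and 35.1. TB gave 38.5, 42.5 and 33.6, BA 25.0, 23.1 and 27.4 and Ca 10.2, 7.98 and 14.5. Unlike Fat4, Fjx1 was lower at E10.5 than in the early limb buds, with no overlap of libraries in either limb type. The log2 difference was -0.41 (SE 0.08) in FLBs and -0.63 (SE 0.08) in HLBs. Towards the ES groups it differed by 0.51 (SE 0.06) for the forelimb and 0.40 (SE 0.07) for the hindlimb. Neighbours in the order of means overlapped between ES–FLB and early HLBs and between TB and E10.5 FLBs.

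Yap1, the coactivator at the end of the Hippo cascade, kept the narrowest range of the 9 genes, 1.78 times between the highest and the lowest group mean. Limb bud means were 393 ± 6.71 (SD, n = 3) scaled CPM in early FLBs, 390.4 ± 13.2 (SD, n = 3) in early HLBs, 388 ± 6.69 (SD, n = 3) in E10.5 FLBs and 412 ± 22.9 (SD, n = 2) in E10.5 HLBs, and neighbours in the order of these means overlapped. ES–FLB gave 303, 290.1 and 310.4 and ES–HLB 302, 283 and 310.3, TB 299.9, 315 and 321 and Ca 237, 218 and 238. Both ES groups lay below all limb buds and overlapped TB, while Ca was separate from every other group. The log2 difference to early limb buds was -0.38 (SE 0.04) for the forelimb and -0.39 (SE 0.05) for the hindlimb. From the early to the E10.5 stage Yap1 differed by -0.02 (SE 0.04) in FLBs and 0.08 (SE 0.06) in HLBs, and with CPM as deposited the sign turned in FLBs, at 0.19.

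Ctgf, a secreted matrix protein and a textbook target of Yap1, was low in limb buds and ES groups and high in Ca. Early FLBs gave 7.39, 7.57 and 7.96 scaled CPM, early HLBs 5.04, 6.17 and 4.51, E10.5 FLBs 5.93, 7.57 and 6.40 and E10.5 HLBs 6.69 and 10.02. ES–FLB gave 3.38, 5.06 and 5.69 and ES–HLB 4.30, 4.09 and 4.51. Neighbours among these 6 groups overlapped. BA gave 21.7, 26.3 and 22.1, TB 18.6, 19.5 and 19.6 and Ca 81.6, 54.4 and 52.6, and these 3 groups were separate from each other and from the rest. The log2 difference was -0.20 (SE 0.14) from early to E10.5 FLBs, 0.61 (SE 0.21) from early to E10.5 HLBs, -0.67 (SE 0.17) from early FLBs to ES–FLB and -0.25 (SE 0.16) from early HLBs to ES–HLB. The HLB stage difference was 0.34 without replicate 3 and 0.88 without replicate 1 of the E10.5 HLBs, and the difference to ES–HLB was -0.13 without replicate 2 of the early HLBs.

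Ankrd1, a titin-binding repeat protein of heart muscle and another target of Yap1, was found in Ca alone at more than trace level. Ca gave 594, 471 and 492 scaled CPM. Early and E10.5 HLBs were at 0 in all 5 libraries, and the other groups lay between 0 and 1.53. The highest of these were BA replicate 3 at 1.53 and early FLB replicate 3 at 1.32, where 13 and 25 reads were counted. The summed cardiomyocyte markers were also highest for their groups in these libraries, 24.1 scaled CPM in BA replicate 3 against 6.27 and 6.97, and 18.1 in early FLB replicate 3 against 4.58 and 4.19, and their part in these values was not tested. With 11510 reads in Ca and 4 in all 5 E10.5 limb bud libraries, the ratio was 3771, with an exact 95% interval of 1472 to 13841 that covers counting error only, since reads without molecular identifiers are not independent molecules. Ankrd1 passed the filter on low values in the comparisons with BA, Ca and TB through Ca alone and in no comparison among limb buds, so the other 8 genes are counted below.

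Hindlimb was first compared with forelimb in the early buds. The choice of the genes did not use the limb type differences themselves, but it used the early, E10.5 and ES levels that they are made of. The early HLBs are also the later stage by the legend, and Fat4 was chosen for its rise with stage. The p-values of these genes between limb types are read with that limit. Fat3 rose in early HLBs (log2 difference 1.00, SE 0.11, adjusted p = 0.000113) and so did Fjx1 (log2 difference 0.46, SE 0.07, adjusted p = 0.00113), while Ctgf fell (log2 difference -0.51, SE 0.13, adjusted p = 0.0205). The change of Ctgf was lost without any of the 3 early FLB libraries or without replicate 3 of the early HLBs (adjusted p 0.0609 to 0.0855 in limma). Fat4 was higher in every early HLB library than in every early FLB library but did not pass the test (log2 difference 0.53, SE 0.25, adjusted p = 0.202). Its difference was 0.25 without replicate 2 of the early FLBs and up to 0.67 without another library. Fat1, Fat2, Dchs1 and Yap1 did not pass either (adjusted p 0.192 to 0.921). In limma 3 of 8 genes passed, 2 higher and 1 lower, against 19.8% of all 12548 genes tested. The HLBs are the later stage by the legend, and stage and limb type cannot be told apart here. Genes with at least 10 kb of exon had a median log2 difference of -0.10 in this comparison, against -0.01 for all genes. Endothelial markers (7 genes, such as Cdh5) summed to 360.4 to 437 scaled CPM in early HLBs and 348 to 364 in early FLBs, with 4 of 7 higher in HLBs. Of the surface ectoderm markers 2 of 10 were higher and 1 lower, and of the limb bud mesenchyme markers 1 of 6 were higher and 2 lower. The part of these cells and of gene length in the differences was not tested.

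At E10.5, 4 of the cadherins were lower in the hindlimb. In E10.5 HLBs Fat4 fell (log2 difference -0.71, SE 0.09, adjusted p = 1.17e-05), as did Fat3 (log2 difference -0.64, SE 0.14, adjusted p = 0.000371), Fat1 (log2 difference -0.39, SE 0.05, adjusted p = 4.2e-08) and Dchs1 (log2 difference -0.32, SE 0.05, adjusted p = 2.01e-06). Fat3 and Fat4 thus had the other sign than in the early pair, while Fat1 and Dchs1 differed by -0.13 (SE 0.12) and -0.13 (SE 0.07) there. No gene of the list rose, and Fjx1 was higher without passing (log2 difference 0.25, SE 0.09, adjusted p = 0.0502). In all, 4 of 8 genes passed, against 24.8% of all genes tested, but the HLB group holds 2 libraries and none of the 4 passed in limma without a variance trend and robust estimation (adjusted p 0.0537 to 0.0697). Long genes as a class had a median of -0.08 against 0.01 for all genes. Skeletal muscle markers (5 genes, such as Pax7 and Lbx1) also differed, with 3 of 4 tested lower in HLBs and a summed level of 8.44 to 9.59 scaled CPM in HLBs and 27.0 to 34.9 in FLBs, none of them at 0 throughout a group. Of these, Myod1 (0 to 0.527 in HLBs) and Myog (0 to 1.09 in HLBs) passed the filter on low values through the FLBs. Neural crest and glial markers (4 genes, such as Sox10) summed to 11.8 to 13.0 and 18.5 to 23.4, with 2 of 3 tested lower. The part of either and of gene length in the differences was not tested.

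Between the sorted ES cells the same signs were seen for Fat3 and Fat4. In ES–HLB Fat4 fell (log2 difference -0.72, SE 0.04, adjusted p = 5.65e-13), with no overlap between 279, 319.7 and 323 and 496, 514 and 503. Fat3 fell as well (log2 difference -0.57, SE 0.08, adjusted p = 3.06e-06) and Dchs1 by a small amount (log2 difference -0.16, SE 0.04, adjusted p = 0.00148), whereas Fjx1 rose (log2 difference 0.35, SE 0.06, adjusted p = 2.4e-05). Fat1, Fat2, Yap1 and Ctgf did not pass (adjusted p 0.203 to 0.859). This gave 4 of 8 genes, 1 higher and 3 lower, against 25.0% of all genes tested. With all libraries in one model Dchs1 and Fjx1 no longer passed (adjusted p 0.359 and 0.0605), and Fat3 and Fat4 did. Erythroid markers (6 genes, such as Hbb-y) were sparse in both groups but summed to 84.4 to 158 scaled CPM in ES–HLB and 5.44 to 7.52 in ES–FLB, and all 4 tested were higher in ES–HLB. Alas2, at 0.121 to 0.241 in ES–FLB, passed the filter on low values through ES–HLB alone. Surface ectoderm markers were higher too, 6 of 10, as were 3 of 7 endothelial markers. Of the limb bud mesenchyme markers, which belong to the cells that were sorted, 2 of 6 were higher and 3 lower. Of 8 dissociation response genes, such as the early response genes Fos and Jun, 3 were lower. The part of these lists in the differences was not tested.

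Limb type in culture was set beside limb type in the embryo as the difference of the ES pair minus that of the early pair. That value is made of the ES and early levels that chose the genes, so it is given for them as a description without a test. For Fat3 the ES pair differed by -0.57 and the early pair by 1.00, which makes -1.57 (SE 0.15). For Fat4 the values were -0.72 and 0.53, which makes -1.24 (SE 0.29). At E10.5 the corresponding values were -0.64 for Fat3 and -0.71 for Fat4, and the difference between the ES pair and the E10.5 pair was not tested. Fjx1 was higher in the hindlimb of all 3 pairs, by 0.46, 0.25 and 0.35 in the early, E10.5 and ES pair, and passed in the early and ES pairs. The early groups differ in stage.

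**Figure D3:**
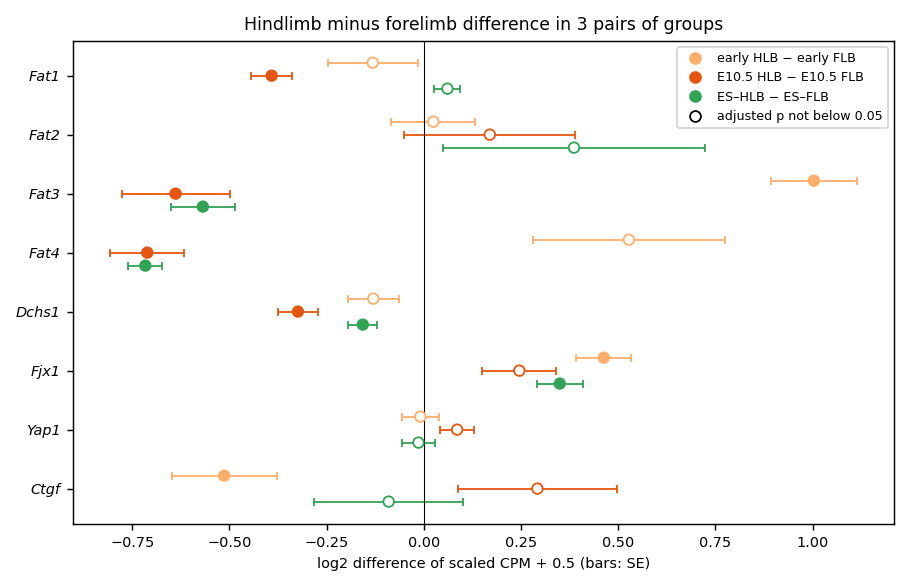
Hindlimb minus forelimb log2 difference of scaled CPM + 0.5 (x axis) of 8 genes (y axis) in the early, E10.5 and ES pairs, with the SE as bars and open points where the adjusted p was not below 0.05. Fat3 and Fat4 lie above 0 in the early pair and below 0 in the E10.5 and ES pairs, and Fjx1 lies above 0 in all 3.

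BA, Ca and TB were compared with E10.5 limb buds, taken as the mean of the FLB and HLB group means, in a single model of 14 libraries. The 3 contrasts share these limb buds. In BA Ctgf rose (log2 difference 1.60, SE 0.14, adjusted p = 2.11e-08), as did Fat4 (log2 difference 0.73, SE 0.17, adjusted p = 0.00968) and Fat3 (log2 difference 0.36, SE 0.10, adjusted p = 0.0063), and Fjx1 fell (log2 difference -0.64, SE 0.14, adjusted p = 0.00279). That was 4 of 8 genes, against 30.0% of all 13909 genes tested. Fat3 did not pass without replicate 1 of the E10.5 HLBs (adjusted p 0.0521). The BA libraries of Fat4 were above all E10.5 limb bud libraries, and those of Fat3 overlapped the FLBs. Neural markers, of which 3 of 6 were higher in BA, summed to 41.5 to 136 scaled CPM there, with none at 0 throughout the group. Neural crest and glial markers summed to 29.6 to 54.2, with 3 of 4 higher and a median log2 difference of 1.08. Of the surface ectoderm markers 4 of 10 were higher and 1 lower, of the endothelial markers 3 of 7 were lower and of the dissociation response genes 3 of 8 were higher and 1 lower. The part of these lists in the differences was not tested.

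Ca gave the most calls of the 3 tissues, among these genes as among all genes tested (77.1%, against 44.5% in TB and 30.0% in BA). Ctgf rose (log2 difference 2.98, SE 0.14, adjusted p = 5.39e-14), while Fat2 (log2 difference -3.00, SE 0.22, adjusted p = 6.54e-12), Fjx1 (log2 difference -1.85, SE 0.14, adjusted p = 4.8e-09) and Dchs1 (log2 difference -1.43, SE 0.12, adjusted p = 1.05e-06) fell. Yap1 (log2 difference -0.79, SE 0.04, adjusted p = 9.28e-15), Fat4 (log2 difference -0.50, SE 0.17, adjusted p = 0.0227) and Fat1 (log2 difference -0.31, SE 0.09, adjusted p = 0.00841) fell by less, and Fat3 did not pass (log2 difference 0.02, SE 0.10, adjusted p = 0.827). For Fat2, 165 reads in the E10.5 limb buds against 7 in Ca gave a ratio of 18.0 with an exact 95% interval of 8.54 to 45.4 for counting error. The difference of Fat1 was -0.18 without replicate 2 of Ca. Fat4 no longer passed without replicate 1 (adjusted p 0.104) or 2 (0.0820) of Ca or without replicate 3 of the E10.5 HLBs (0.0596). Thus 7 of 8 genes passed, 1 higher and 6 lower, at a background of 77.1% of all genes tested. All 9 cardiomyocyte markers were higher in Ca and 5 of 6 limb bud mesenchyme markers were lower. All 7 endothelial and all 6 erythroid markers were higher as well, with sums of 943 to 1010.0 and 23017 to 33519 scaled CPM in Ca against 310.0 to 318 and 2659 to 3806 in E10.5 FLBs. Of the surface ectoderm markers 2 of 10 were higher and 8 lower, and of the skeletal muscle markers 4 of 5 were lower. Dissociation response genes summed to 250.2 to 372 scaled CPM in Ca and 192 to 211 in E10.5 FLBs, with 6 of 8 higher and 1 lower (median 1.60). The part of these lists in the differences was not tested.

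In TB Fat3 rose (log2 difference 1.77, SE 0.10, adjusted p = 1.7e-13), as did Ctgf (log2 difference 1.33, SE 0.14, adjusted p = 1.33e-07). Dchs1 (log2 difference -0.57, SE 0.12, adjusted p = 0.00338) and Yap1 (log2 difference -0.36, SE 0.04, adjusted p = 1.34e-07) fell. That was 4 of 8 genes, against 44.5% of all genes tested, and Fat4 was among those that did not pass (log2 difference -0.19, SE 0.17, adjusted p = 0.406). All 4 neural crest and glial markers and 5 of 6 neural markers were higher in TB, and 5 of 6 limb bud mesenchyme markers were lower, with a sum of 606 to 673 scaled CPM against 1689 to 1745 in E10.5 FLBs. All 6 erythroid markers were higher (median 0.90), with a sum of 5504 to 6396, and of the endothelial markers 4 of 7 were higher. All 5 skeletal muscle markers passed, 3 higher and 2 lower, while of the surface ectoderm markers 2 of 10 were higher and 4 lower and of the dissociation response genes 3 of 8 were higher and 1 lower. The part of these lists in the differences was not tested.

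**Figure D4:**
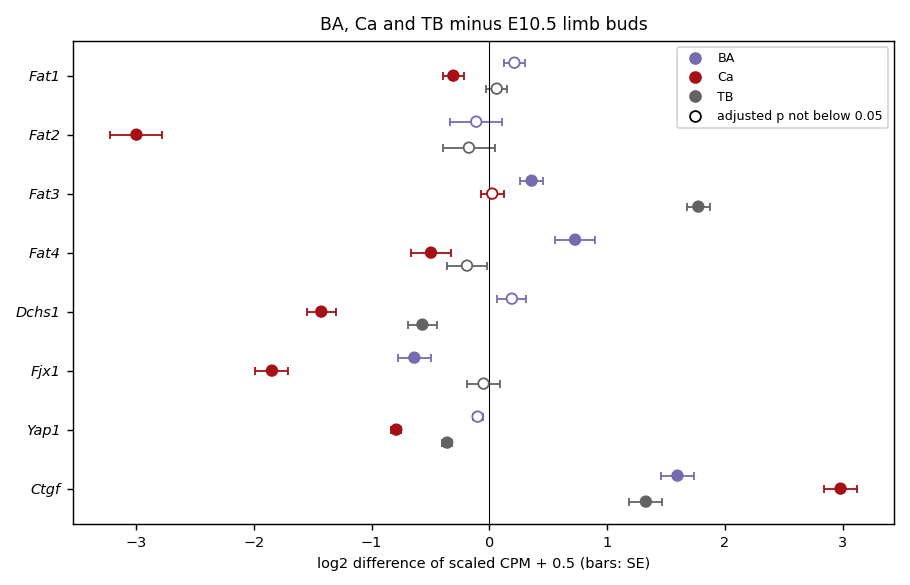
Log2 difference of scaled CPM + 0.5 (x axis) of 8 genes (y axis) between BA, Ca or TB and the E10.5 limb buds, with the SE as bars and open points where the adjusted p was not below 0.05. Ctgf lies above 0 in all 3 tissues, Fat3 lies furthest to the right of the TB points, and Fat2, Fjx1 and Dchs1 furthest to the left in Ca.

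The rest of the pathway was followed in 5 lists of genes that are not among the 10: 11 kinases and cofactors of the Hippo core, 13 upstream adaptors, 8 partners of Yap1 (Wwtr1, Tead and Vgll genes), 17 Yap1 and TAZ targets and 13 core planar polarity genes. The lists were written with earlier results of these data known. Values in parentheses are log2 differences with their SE. Yap1 itself fell in Ca, while the mean of Wwtr1 (TAZ) was 82.4 scaled CPM in Ca, 87.1 in BA and 78.3 in TB. It was 69.8 in E10.5 FLBs and 63.6 in E10.5 HLBs. The part of either coactivator in the levels of the targets was not tested. In Ca 11 targets rose and 3 fell of 17, with a median log2 difference of 0.99 against -0.02 for all genes, at a background of 77.1% of all genes. Among the largest were Myof, a membrane repair protein (3.39, SE 0.19), the matrix gene Ccdc80 (2.87, SE 0.11), the kinase Nuak2 (2.16, SE 0.25) and Cyr61, a matrix protein related to Ctgf (1.92, SE 0.24). In TB 10 rose and 2 fell against a background of 44.5% (median 0.49), led by Nuak2 (4.28, SE 0.25) and the forkhead factor Foxf2 (3.32, SE 0.30). In BA 9 rose and none fell against 30.0% (median 0.36), with Foxf2 (4.85, SE 0.30), Myof (1.46, SE 0.19), the coagulation factor receptor F3 (1.27, SE 0.20) and the receptor kinase Axl (0.74, SE 0.07) ahead. Foxf2 is also known as a gene of facial and gut mesenchyme. In E10.5 limb buds Foxf2 lay at 0.165 to 0.678 scaled CPM in FLBs and 0.527 to 0.904 in HLBs. It passed the filter on low values through BA, Ca and TB alone. Nuak2, at 0.329 to 0.346 in FLBs and 0.351 to 1.27 in HLBs, passed mainly through those tissues. Both are counted among the targets that rose in TB.

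**Figure D5:**
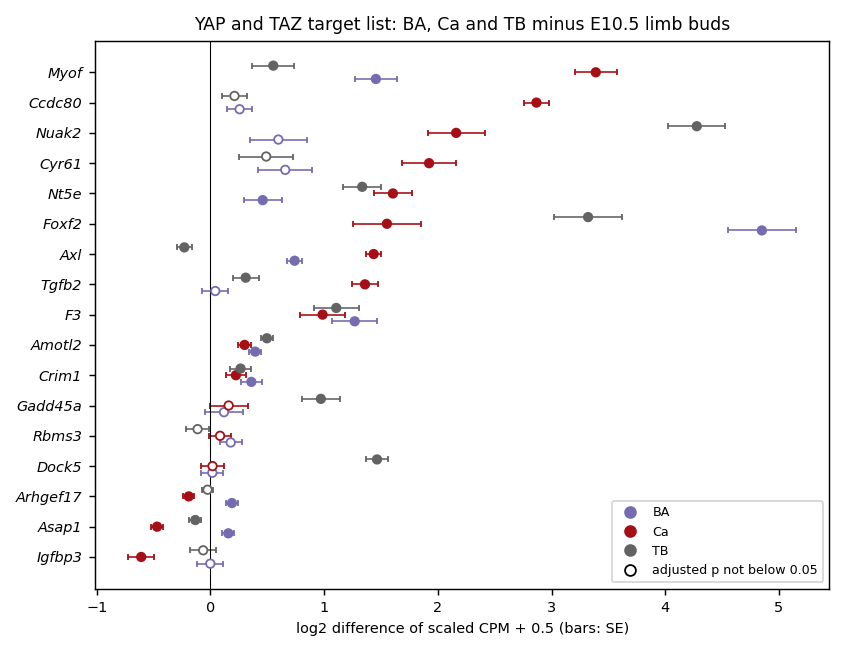
Log2 difference of scaled CPM + 0.5 (x axis) of the 17 listed Yap1 and TAZ targets (y axis, ordered by Ca) between BA, Ca or TB and the E10.5 limb buds, with the SE as bars and open points where the adjusted p was not below 0.05. Myof and Ccdc80 lie furthest to the right in Ca, Foxf2 in BA and Nuak2 in TB, and Igfbp3 furthest to the left in Ca.

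Between limb types, Tgfb2, a growth factor gene of this list, fell in the hindlimb of all 3 pairs, with log2 differences of -1.43, SE 0.15 in the early pair, -2.17, SE 0.10 at E10.5 and -1.23, SE 0.05 in the ES pair. The backgrounds were 19.8%, 24.8% and 25.0% of all genes in the early, E10.5 and ES pair. In early HLBs 1 target rose and 5 fell of 17 (median -0.34 against -0.01 for all genes), at E10.5 none rose and 7 fell of 15 (median -0.27 against 0.01), and in ES–HLB 2 rose and 6 fell of 16 (median -0.05). Foxf2, the target that rose in early HLBs (1.45, SE 0.32), was at 1.70 to 1.80 scaled CPM there and at 0 to 0.885 in early FLBs. It passed the filter on low values in the early pair through the HLBs alone. In ES–HLB Foxf2 fell (-2.70, SE 0.14). Its limb type difference in culture against the embryo, -4.15 (SE 0.38), is made in part of those early levels and is given as a description. In the test of the ES pair against the early pair 3 targets were higher and 2 lower of 17, against 22.4% of all genes tested. Foxf2 is counted among the lower.

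Between stages, genes of the lists were tested at an adjusted p of 0.001, and the chosen genes were not. From early to E10.5 FLBs, where 42.7% of all genes passed, 5 rose and 2 fell of 8 (median 0.54) for the partners of Yap1. Vgll3 (2.08, SE 0.25) and Wwtr1, which encodes TAZ (0.82, SE 0.06), were among those that rose and Tead4 (-1.01, SE 0.17) among those that fell. Vgll3 lay at 0.409 to 1.16 scaled CPM in early FLBs and 4.07 to 5.88 in E10.5 FLBs. It passed the filter on low values through the E10.5 FLBs. Of the adaptors 3 rose and 4 fell of 13 (median -0.04), led by the scaffold Amot (1.24, SE 0.06) and the polarity protein Dlg5 (0.98, SE 0.04). Of the targets 3 rose and 2 fell of 16 (median 0.14), of the kinase core 2 fell of 11 (median -0.06) and of the planar polarity genes 3 rose of 12 (median 0.07), against -0.06 for the median of all genes. Markers of other cells also differed between these FLBs. The sum of the skeletal muscle markers was 4.74 to 9.01 scaled CPM in early and 27.0 to 34.9 in E10.5 FLBs, with 3 of 5 higher (median 3.40). Myf5, Myod1 and Myog lay at 0 to 0.156 in early FLBs and passed the filter on low values through the E10.5 FLBs alone. Of the surface ectoderm markers 3 of 10 were higher and 7 lower, of the neural crest and glial markers 2 of 3 were higher, of the endothelial markers 1 of 7 were higher and 2 lower and of the limb bud mesenchyme markers 3 of 6 were higher and 3 lower. Their part in these differences was not tested. From early to E10.5 HLBs 4.97% of all genes passed, a share that rests on 2 libraries at E10.5 and varied with the fit. Of the lists, Amot (0.87, SE 0.06), Dlg5 (0.58, SE 0.06) and Wwtr1 (0.54, SE 0.08) rose. Of the 11 kinase core, 17 target and 12 planar polarity genes tested 0 passed in limma, and 2, 7 and 6 had an unadjusted p under 0.05.

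ES–FLB differed from early FLBs in 65.8% of all genes and ES–HLB from early HLBs in 59.9%. Of the targets 9 rose and 2 fell of 17 (median 0.50) in ES–FLB and 8 rose and 1 fell of 17 (median 0.75) in ES–HLB, against medians of -0.03 and -0.02 for all genes. The shares of targets that passed, 64.7% in ES–FLB and 52.9% in ES–HLB, were near or below those of all genes. Cyr61, the relative of Ctgf, rose in ES–FLB (2.96, SE 0.25) and ES–HLB (3.09, SE 0.11), whereas Ctgf itself was lower in mean in both. Foxf2 rose in ES–FLB (5.41, SE 0.36), where it passed the filter on low values through ES–FLB alone, and Myof rose in ES–HLB (2.60, SE 0.17). The target Amotl2 went the other way, with a mean of 17.4 scaled CPM in ES–FLB against 85.0 in early FLBs. In ES–HLB its mean was 23.8, against 71.0 in early HLBs. Of the partners 5 rose and 2 fell of 7 (median 0.78) in ES–FLB and 5 rose and 2 fell of 7 (median 0.66) in ES–HLB, with Tead4 lower in both (-2.97, SE 0.20 and -2.17, SE 0.18). Of the adaptors 3 rose and 7 fell of 13 (median -0.42) and 3 rose and 7 fell of 13 (median -0.24). Wwc1, the adaptor Kibra, fell in ES–FLB (-2.24, SE 0.11) and ES–HLB (-1.57, SE 0.12), and so did Ajuba, listed as Jub (-1.47, SE 0.07 and -1.29, SE 0.07). Of the kinase core 4 rose and 3 fell of 11 (median 0.19) and 4 rose and 2 fell of 11 (median 0.11), with a fall of the kinase gene Lats2 (-1.24, SE 0.09 and -0.92, SE 0.09), and of the planar polarity genes 6 rose and 3 fell of 13 (median 0.23) and 3 rose and 4 fell of 13 (median 0.04).

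Other measures moved with the ES groups. The 8 dissociation response genes summed to 1456 to 2019.8 scaled CPM in ES–FLB and 1128 to 1362 in ES–HLB, against 170.5 to 183 in early FLBs and 166 to 176 in early HLBs. None was at 0 throughout a group, and 7 of 8 rose in both ES groups. Endothelial markers summed to 26.8 to 31.2 in ES–FLB and 40.7 to 46.4 in ES–HLB against 348 to 364 and 360.4 to 437 in the early limb buds, and all 7 fell in both, as did all 6 erythroid markers. Genes with at least 10 kb of exon had a median log2 difference of 0.25 in ES–FLB and 0.35 in ES–HLB. The part of dissociation, of these cells and of gene length in the values of the cadherins was not tested.

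The counts of the remaining lists are read against the backgrounds of 77.1% of all genes in Ca, 44.5% in TB, 30.0% in BA, 19.8% in the early pair, 24.8% at E10.5 and 25.0% in the ES pair. Of the upstream adaptors 3 rose and 9 fell of 13 (median -0.51) in Ca, against -0.02 for all genes. Amot, an angiomotin that holds Yap1 outside the nucleus, had their largest change in Ca (-2.09, SE 0.08) and in TB (-1.67, SE 0.08), where 4 rose and 6 fell of 13 (median -0.10). In BA 5 rose of 13 (median 0.11), in the early pair 2 rose and 3 fell of 13 (median -0.03), at E10.5 4 fell of 13 (median -0.04) and in the ES pair 3 rose and 1 fell of 13 (median 0.10). The kinase core holds the Mst and Lats kinases with their cofactors. Of its genes 2 fell of 11 (median -0.12) in the early pair, 1 fell of 11 (median -0.03) at E10.5 and 3 fell of 11 (median -0.05) in the ES pair, shares near or below the background. In BA 1 fell of 11 (median -0.03), in Ca 5 rose and 4 fell of 11 (median -0.09) and in TB 2 rose and 3 fell of 11 (median 0.06).

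Of the partners 3 rose and 4 fell of 8 (median -0.29) in Ca, at the same backgrounds, where Tead1 rose (1.05, SE 0.05) and Tead2 fell (-1.27, SE 0.04). In BA 5 rose of 8 (median 0.34), led by Vgll2, a cofactor of Tead in muscle (2.77, SE 0.23), and in TB 5 rose and 3 fell of 8 (median 0.25). Between limb types 2 rose and 1 fell of 7 (median 0.05) in the early pair and 3 fell of 8 (median -0.09) at E10.5. In the ES pair 0 of 7 passed in limma and 0 had an unadjusted p under 0.05. Of the planar polarity genes 7 rose and 1 fell of 13 (median 0.24) in TB, 6 rose and 1 fell of 13 (median 0.21) in BA and 4 rose and 5 fell of 13 (median -0.03) in Ca. Celsr1, a cadherin of this system, rose in TB (2.75, SE 0.07) and Ca (1.36, SE 0.07). Between limb types 3 rose and 1 fell of 13 (median 0.04) of these genes in the early pair, 2 fell of 12 (median -0.11) at E10.5 and 3 fell of 13 (median -0.07) in the ES pair. In the test of the ES pair against the early pair, with 22.4% of all genes past the threshold, 1 rose of 11 (median 0.02) for the kinase core, 4 rose of 13 (median 0.11) for the adaptors, 1 rose and 2 fell of 7 (median -0.09) for the partners and 3 fell of 13 (median -0.08) for the planar polarity genes.

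Genes were also ranked by how closely their pattern followed each of the 9 genes, as Pearson's r over the 9 group means of log2(scaled CPM + 0.5), among 6977 genes with at least 5 scaled CPM in a group and a range of at least 1 on the log2 scale. Nearest to Fat4 were Tmem35 (r = 0.99), the polysialic acid enzyme St8sia2 (0.99), the protocadherin Pcdh9 (0.99), Fam115c (0.99) and the pantothenate kinase Pank3 (0.99). For Dchs1 they were the teneurin Odz3 (0.99), Avl9 (0.99) and Med13 (0.99), and for Fat3 the calcium channel Cacna1a (0.97), Scara5 (0.95) and Trim9 (0.93). Fat1 was followed by 4632415L05Rik (0.99), 6820431F20Rik (0.99) and Tmem181b-ps (0.99), and Fat2 by Cbx1 (0.99), Nasp (0.99) and Snrnp40 (0.99), chromatin and splicing genes. Fjx1 was nearest to Pik3r2 (0.97), the Wnt inhibitor Notum (0.97) and Slc39a14 (0.97), and Yap1 to Nfyb (0.99), Fam109a (0.99) and Rab39b (0.98). Ctgf was nearest to Osbpl3 (0.98), Pde4b (0.96) and Fgf13 (0.95). Ankrd1 was nearest to Klhl31, Myh6 and Hspb2 (each r = 1.00), of which Myh6 is a cardiac myosin. Because Ankrd1 was above trace level in Ca alone, these r values rest on Ca. Spearman's rho was 0.89 for Klhl31, 0.85 for Myh6 and 0.72 for Hspb2. Among the genes themselves, r over the 9 group means was 0.76 between Fat4 and Dchs1, 0.86 between Fat1 and Dchs1, 0.27 between Fat4 and Fjx1, -0.36 between Fat4 and Yap1 and -0.52 between Yap1 and Ctgf. These are descriptions over points that share libraries, and the ES groups weigh on most of them.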

How the data were processed

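RNA was measured in 27 libraries made with a stranded mRNA kit and sequenced single-end. Per the study's methods and the submitters' processing notes, the authors checked reads with FastQC 0.11.5, aligned them to mm10 with HISAT 2.0.4 and RefSeq genes, and estimated counts per gene with Cuffdiff (Cufflinks 2.1.1 in the notes), which went into edgeR 3.16.2. The strand setting is not given in the sources used here. The deposited values were CPM for 23279 genes, scaled by the authors to the same total in each column. Differences in total were thus removed before deposit, while the detection floor still varied with depth. Depth was highest in the early limb buds and lowest in those of E10.5, so it differs together with stage. The depth of a library was read from the spacing of its low values. Whole reads were recovered for 94.1% to 99.2% of low values (within 0.01 reads), too few for a count test.

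The members and lists were chosen with earlier results of these data known. CPM were rescaled by trimmed means over 26 libraries (trimming 30% of ratios and 5% of intensities) and tested as log2(scaled CPM + 0.5) in limma 3.58.1 (R 4.3.3, variance trend, robust) with Benjamini-Hochberg adjustment over every gene that reached 1 CPM in 3 or more of the libraries compared. Because of the pseudocount of 0.5, differences of genes at low levels come out too small on this scale. A gene nearly absent from a group could pass the filter only through the groups where it was high. Calls of such list genes and markers rest on those groups. Thresholds were adjusted p 0.05 between limb types and tissues and 0.001 for list genes between stages and in ES groups. Within each list and comparison at most 4 genes past the threshold, those with the largest differences, are named. Positions are from GENCODE vM21 on GRCm38 and promoters from RefSeq GRCm38.p6. Tables and figures were made in Python 3.11.15 (pandas 2.3.3, scipy 1.17.1, matplotlib 3.10.9), and the fit was tested on simulated data. Alternatives were other scalings, filters, pseudocounts and limma settings, all libraries in one model, a replicate block, and each library left out in turn.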

Additional observations from a re-analysis of the deposited data

Results flagged for a closer look

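The hindlimb minus forelimb difference of Fat3 and of Fat4 had opposite signs in the ES groups and the early limb buds. The ES pair minus the early pair gave -1.57 on the log2 scale for Fat3 (SE 0.15) and -1.24 for Fat4 (SE 0.29). All 3 ES–HLB libraries lay below all 3 ES–FLB libraries for both genes, and all 3 early HLB libraries lay above all 3 early FLB libraries. The values are made of the ES and early levels that chose the genes, and the difference was not tested. The early HLBs and FLBs differ in stage by the legend of the study, and stage and limb type cannot be told apart in this difference. In the E10.5 pair the hindlimb minus forelimb difference was -0.64 for Fat3 and -0.71 for Fat4, of the same sign as in the ES pair. The early difference of Fat4, 0.53 (SE 0.25), did not pass in limma (adjusted p = 0.202). It was 0.25 without replicate 2 of the early FLBs.

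The E10.5 HLB library that was left out for its missing chromosomes holds values for 4 of the genes on other chromosomes, well above its detection floor. It gave 61.3 scaled CPM of Fat4, beside 56.4 and 60.8 in the other E10.5 HLB libraries. Fat2 was at 6.574 beside 6.87 and 5.45, Fjx1 at 42.82 beside 43.2 and 42.5, and Ctgf at 7.818 beside 6.69 and 10.02.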

How the results depend on the processing

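Of the counts of genes and of members past the threshold, 320 values under an alternative stayed within 1.5 times the main count and 16 did not. In the comparisons where members were tested, no difference of a member reversed past its threshold under any alternative. Between stages and from early limb buds to ES groups members had no threshold, so a reversal could not be counted. Signs did turn there, as for Fat1 between FLB stages, at -0.095 to 0.141 with 1 library left out. In E10.5 HLBs against FLBs limma without variance trend and robust estimation called 825 genes and 0 of the 8 members, in place of 4, and in the FLB stage comparison it called 2878 genes. With all libraries in one model 2 members passed between ES–HLB and ES–FLB. In the HLB stage comparison, where 617 genes passed, 150 passed with no filter, 10 without trend and robust estimation, 1627 with all libraries in one model, 1317 with the replicate block and 1023 with the left-out E10.5 HLB library kept. Leaving out 1 library gave 13 to 1422 genes there and 1347 to 2276 in the early pair, where 2485 passed. It gave 13 without replicate 3 and 15 without replicate 1 of the E10.5 HLBs, 181 without replicate 3 and 1422 without replicate 1 of the early HLBs, and in the early pair 1347 without replicate 1 and 1614 without replicate 3 of the early FLBs and 1575 without replicate 3 of the early HLBs. With 1 E10.5 HLB library left, it is assumed to vary like the other group. The cause of these shifts was not tested.

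Replicate numbers are shared across groups, and the labels do not tie them to an embryo. In no pair of groups compared was the r of the deviations over 0.1 for every shared number (-0.107 to 0.143), so they were taken to share only a number. Samples correlated best with their own number in the E10.5 and ES pairs and among BA, Ca and E10.5 FLBs, a hint from the data, not the design. With the replicate block, Fjx1 (adjusted p = 0.00983) and Yap1 (0.0413) passed at E10.5 and Fat1 in BA (0.0480), all in limma. Fjx1 also passed at E10.5 with the library kept (0.0224), at a filter of 5 CPM (0.0469) and without replicate 2 of the FLBs (0.0245). Dchs1 did not pass at E10.5 with all libraries in one model (0.0619) or between ES groups without trend and robust estimation (0.110). With Spearman's rho in place of Pearson's r, 3 of the 5 genes nearest to Fat4 were shared. The planned count test was not run, since whole reads were recovered for too few of the low values. Depth limits Fat2 and Ankrd1, which were near or under 3 reads in several groups.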
